A study of Homo sapiens with 2 samples.

Results

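The genes described are 8 products of the exocrine pancreas, measured in liver progenitors made from human embryonic stem cells: the trypsinogens PRSS1 and PRSS3, the chymotrypsinogen CTRB1, the elastase CELA3A, the carboxypeptidase CPA1, the lipases CEL and PNLIP, and the trypsin inhibitor SPINK1. They were taken by symbol from the 57158 genes of the deposited table, all 8 had a row, and the set was chosen by the RPKM of PRSS1, which is high in both libraries. Their levels are therefore given as a description, without a test. The cells came from the line CyT49 as 1 group. They had reached definitive endoderm, the germ layer of gut and liver and of the pancreas, by day 2, and then spent 6 days in suspension in RPMI medium with 50 ng/ml BMP4, 10 ng/ml FGF2 and 0.2% FBS, to day 8. The group has 2 libraries of poly(A) RNA, titled replicate 1 and replicate 2 and called library 1 and library 2 here, and there is no second cell type, time or treatment to compare them with. Nothing in the labels says whether the libraries came from separate cultures. Over 881 single-exon genes their difference was 1.09 times the counting variance (95% interval 0.995 to 1.2), and they were counted as 1 sample. Over the 560 of these with at least 100 reads it was 1.15 (1.03 to 1.3), above 1.

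Acinar cells of the pancreas make digestive enzymes as inactive precursors and store them in zymogen granules. In the gut, enteropeptidase cuts trypsinogen to trypsin, and trypsin then activates chymotrypsinogen, proelastase and procarboxypeptidase. SPINK1 blocks trypsin that becomes active too early. PRSS1 encodes cationic trypsinogen, the main human form, and PRSS3 encodes mesotrypsinogen, whose active enzyme resists most trypsin inhibitors. Liver and ventral pancreas arise from neighbouring endoderm of the foregut.

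Values are RPKM, reads scaled to the length of the gene and the depth of the library, with every value under 0.5 listed as 0.1 and called the floor here. Both trypsinogens were abundant, SPINK1 and CEL were low, and neither library had CTRB1, CELA3A, CPA1 or PNLIP above the floor. Thus 4 of the 8 genes reached 1 RPKM in both libraries, beside 59.8% of the 19342 protein-coding genes, and 4 were at the floor, beside 33.8%. All but the trypsinogens stayed under 5 RPKM, a level that 35.4% of protein-coding genes reached. In bulk RNA a few cells with much of a transcript and many cells with little cannot be told apart.

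**Figure D1:**
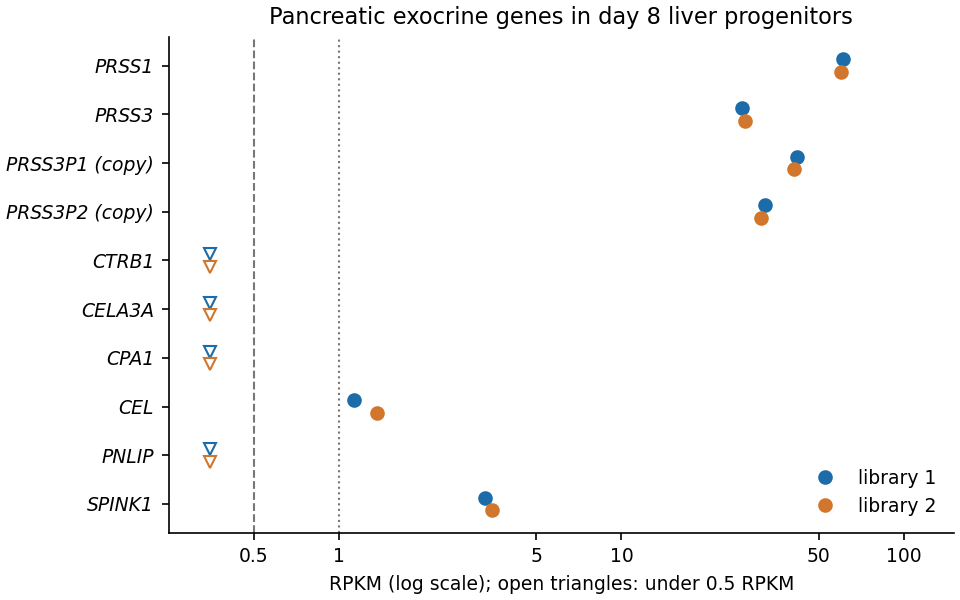
RPKM of the 8 exocrine genes and of the PRSS3P1 and PRSS3P2 copies, on a log scale, with 1 point for each library; the dashed line marks 0.5 RPKM, the dotted line 1 RPKM, and open triangles stand for genes listed under 0.5. The trypsinogen genes and copies sit between 26.7 and 60.8 RPKM, SPINK1 and CEL between 1.13 and 3.48, and the other 4 under 0.5.

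The trypsinogen genes belong to a family of near copies, so the sequences that tell them apart are shown first. PRSS1 (ENSG00000204983.8, protein-coding) lies on chromosome 7 of GRCh37 (hg19) from 142457319 to 142460923, plus strand. The unprocessed pseudogene PRSS3P1 follows from 142468264 to 142471792, and PRSS3P2, also annotated as a pseudogene, from 142478064 to 142482416. PRSS3 (ENSG00000010438.12, protein-coding) lies on chromosome 9 from 33750677 to 33799229. Aligned with the PRSS1 transcript of 809 bases, PRSS3 was 91.5% identical, PRSS3P2 91.7% and PRSS3P1 89.8%. The 60 bases of PRSS1 that differed most from all 3 relatives lie in its exon 3, in coding sequence, at chr7:142459716-142459775. The matching bases are chr9:33797918-33797977 in PRSS3, chr7:142470634-142470693 in PRSS3P1 and chr7:142481218-142481277 in PRSS3P2. Capitals mark bases that differ from PRSS1, 10 in PRSS3, 14 in PRSS3P1 and 10 in PRSS3P2.
PRSS1: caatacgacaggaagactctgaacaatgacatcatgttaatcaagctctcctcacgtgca
PRSS3: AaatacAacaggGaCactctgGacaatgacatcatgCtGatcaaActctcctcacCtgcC
PRSS3P1: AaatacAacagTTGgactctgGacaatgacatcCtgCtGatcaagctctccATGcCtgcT
PRSS3P2: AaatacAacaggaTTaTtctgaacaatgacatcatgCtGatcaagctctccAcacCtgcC

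The most alike 60 bases lie in the same exon, at chr7:142459628-142459687 in PRSS1, chr9:33797830-33797889 in PRSS3, chr7:142470546-142470605 in PRSS3P1 and chr7:142481130-142481189 in PRSS3P2. There each relative differed from PRSS1 by 1 base, again in capitals.
PRSS1: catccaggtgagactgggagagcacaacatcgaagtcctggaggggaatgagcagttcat
PRSS3: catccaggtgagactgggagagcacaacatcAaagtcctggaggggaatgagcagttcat
PRSS3P1: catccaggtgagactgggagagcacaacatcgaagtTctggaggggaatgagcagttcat
PRSS3P2: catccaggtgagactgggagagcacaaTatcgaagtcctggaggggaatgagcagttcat

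PRSS1 had 60.8 RPKM in library 1 and 59.7 in library 2, which ranked it 473 among the 19342 protein-coding genes. With its transcript of 809 bases, these values stand for about 1238 and 1221 reads. The libraries differed by 1.72% of their mean, less than the 4.03% that counting error alone gives. PRSS3 had 26.7 RPKM in library 1 and 27.3 in library 2, rank 1297, from about 544 and 558 reads. The gene has 7 annotated transcripts over 48.6 kb, and its value does not tell them apart. The 2 libraries thus gave the same picture for both genes, with PRSS1 at 2.27 times PRSS3 in library 1 and 2.18 times in library 2.

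The copies beside PRSS1 lay between the levels of the genes. PRSS3P1 had 41.9 and 40.9 RPKM in libraries 1 and 2, and PRSS3P2 had 32.2 and 31.2, both above PRSS3. PRSS1 stood at 1.46 times PRSS3P1 and 1.90 times PRSS3P2 by the mean levels. Of the 14123 pseudogenes measured, 15.2% reached 1 RPKM. Summed over PRSS1, PRSS3 and these copies, the family came to 162 and 159 RPKM. PRSS1 held 37.6% of that sum in library 1, PRSS3P1 25.9%, PRSS3P2 19.9% and PRSS3 16.5%, and each share in library 2 lay within 1 percentage point. PRSS1 and the copies on chromosome 7 together stood at 4.93 times PRSS3. The further relatives PRSS3P4 and PRSS58 did not leave the floor.

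How far reads could pass between these genes depends on the length of the reads, which the labels do not give, and on how reads with several matches were counted. Of the 760 windows of 50 bases in the PRSS1 transcript, none occurred without mismatch in PRSS3, 2 occurred in PRSS3P1 and 16 (2.11% of the windows) in PRSS3P2. For PRSS3 it was 0 of 759 windows in PRSS1, 24 in PRSS3P1 and 13 in PRSS3P2. At 36 bases 7.88% of PRSS1 windows and 12.2% of PRSS3 windows occurred in some relative, and at 75 or 100 bases none did. With up to 2 mismatches allowed, an alternative chosen after seeing the data, 26.4% of the 50-base windows of PRSS1 and 51.6% of those of PRSS3 matched a relative. With the same allowance at 100 bases the shares were 0.845% for PRSS1 and 2.12% for PRSS3, none of them between PRSS1 and PRSS3. Windows within 2 mismatches of a relative were thus common at 50 bases and rare at 100. How reads with several matches were counted is not given, so the part of shared reads in each value was not tested. In a pair outside this family, chosen after its values were seen, a copy read higher than its source gene. EEF1A1P5, a copy of the elongation factor gene EEF1A1, had 5425 and 5459 RPKM, beside 1578 and 1587 for EEF1A1. The sequence shared in that pair was not measured, so it says nothing about the trypsinogen copies.

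**Figure D2:**
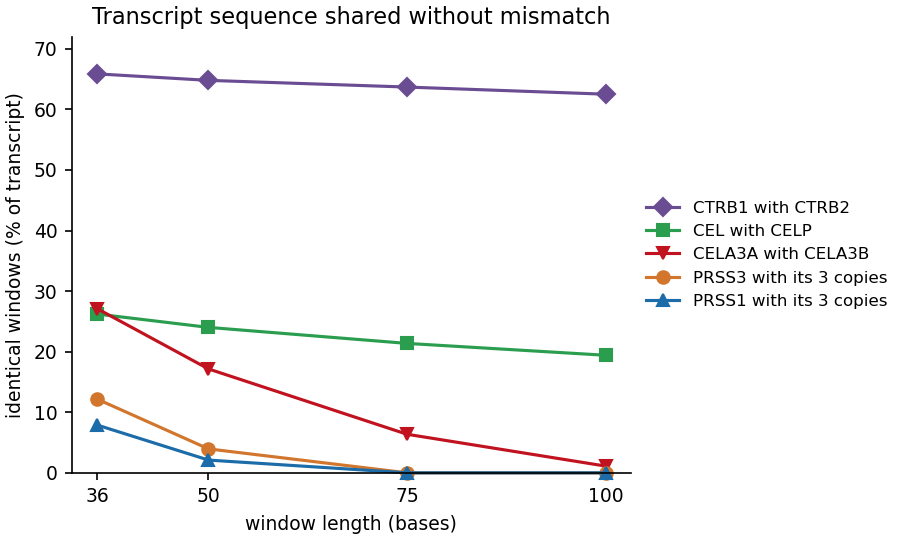
Percent of the windows of a transcript (vertical axis) that occur without mismatch in a related gene, by window length in bases (horizontal axis), for 5 exocrine genes. PRSS1 and PRSS3 lie lowest, at 2.11% and 3.95% for 50 bases and at 0% from 75 bases on, and CTRB1 highest, at 64.8% for 50 bases.

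PRSS2, which encodes anionic trypsinogen, the other major human form, was not analysed here, since no identifier was matched to it. In the RefSeq table for GRCh38 its promoter, from 142770720 to 142771019 on chromosome 7, lies beyond PRSS3P1, where the GRCh37 annotation has PRSS3P2. The best match of that promoter in GRCh37 was the PRSS1 promoter, at 89.9% identity over the 300 bases, whereas the RefSeq promoters of PRSS1 and PRSS3 each had a match of 100%. Searched in the same way, the PRSS1 transcript matched GRCh37 at PRSS1, PRSS3P1, PRSS3P2, PRSS3, PRSS3P3 and PRSS3P4, and PRSS3P3 was not analysed here. Whether reads of PRSS2 entered the values of its relatives was not tested.

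The PRSS1 locus lies inside the T cell receptor beta locus, where nearly all variable and joining segments near it were at the floor. Within 100 kb of PRSS1 the table has 23 other genes, of which 5 were above the floor, all of them at higher coordinates than PRSS1. These were PRSS3P1, PRSS3P2, the constant segment TRBC2, the variable segment TRBV30 and EPHB6, a kinase-defective ephrin receptor. Of the 16 variable and joining segments or their pseudogenes in that window, 15 were at the floor, and TRBV30, on the minus strand, had 2.67 and 2.91 RPKM. The joining segments are short, such as TRBJ2-1 from 142494049 to 142494098, so few reads could be counted to them and their floor values say little. TRBC2 had 29.7 RPKM in library 1 and 26.2 in library 2, and EPHB6 had 35.1 and 34.6. TRBC2 thus lay just under PRSS3P2, and EPHB6 between PRSS3P2 and PRSS3P1. Of the 11 T cell markers measured TRBC2 alone (9.09%) reached 1 RPKM, beside 59.8% of protein-coding genes. Its close relative TRBC1 was not analysed here. CD3D, a chain of the T cell receptor complex, had 0.598 and 0.684 RPKM, and CD3E, CD3G, CD247, CD2, PTPRC and LCK were at the floor. Around PRSS3, 10 other genes lie within 100 kb, and UBE2R2, a ubiquitin-conjugating enzyme, at 43.1 and 41.8 RPKM, and the pseudogene PTENP1, at 4.73 and 4.75, were above the floor. UBE2R2-AS1, which overlaps PRSS3 on the opposite strand, was at the floor.

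**Figure D3:**
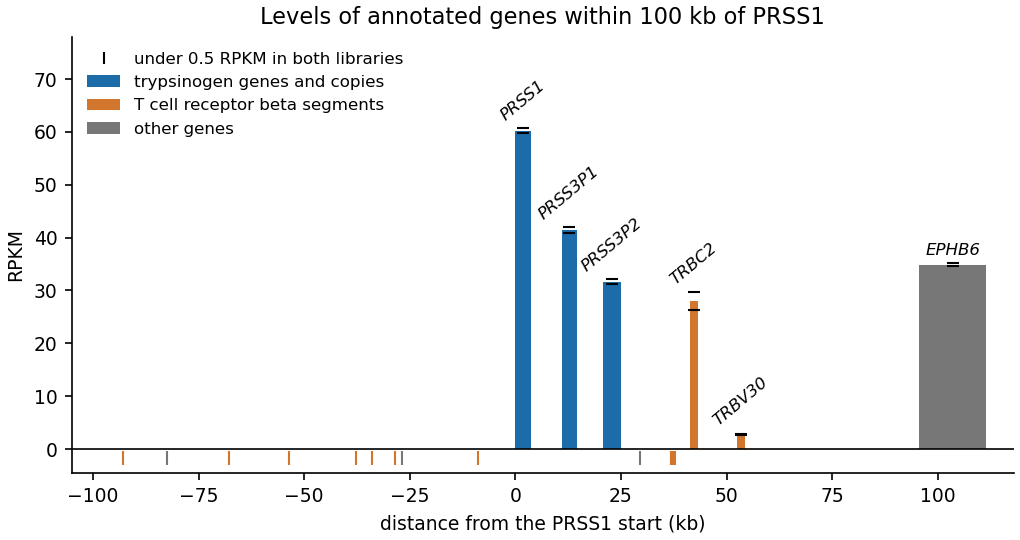
Mean RPKM (bars, with a dash for each library) of the annotated genes within 100 kb of PRSS1, by distance from its start; ticks under the axis mark genes listed under 0.5 RPKM in both libraries. Above 0.5 stand PRSS1, PRSS3P1, PRSS3P2, TRBC2, TRBV30 and EPHB6.

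The zymogens that trypsin activates were not detected. CTRB1 (chromosome 16, 75252886 to 75260236), which encodes a chymotrypsinogen, was listed under 0.5 RPKM in both libraries, as were CELA3A (chromosome 1, 22328150 to 22339035), an elastase-like protease, and CPA1 (chromosome 7, 130020180 to 130027955), a carboxypeptidase that removes C-terminal residues. On a transcript of about 800 bases 1 RPKM stood for 20.1 reads in library 1, so transcripts under the floor may still be present. CTRB1 shared 64.8% of its 50-base windows with CTRB2 and CELA3A 17.2% with CELA3B, and both partners were at the floor too. Whether reads with several matches were left out of these values was not tested.

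The lipases were low or at the floor. CEL (chromosome 9, 135937368 to 135947248), the bile salt-activated lipase, had 1.13 RPKM in library 1 and 1.36 in library 2, from about 68.0 and 82.1 reads. Its libraries differed by 18.4% of their mean, close to the 16.4% expected from counting. The neighbouring pseudogene CELP, with which it shared 24.0% of its 50-base windows, had 0.768 and 1.21 RPKM. The level of CEL was thus near the limit of 1 RPKM and close to that of its copy. PNLIP (chromosome 10, 118305443 to 118327367), the pancreatic triglyceride lipase, was at the floor. Of 17 other lipases and lipid esterases measured, 8 (47.1%) reached 1 RPKM, beside 59.8% of protein-coding genes. They were led by PNPLA2, the lipase of fat droplets, at 11.5 RPKM and PNPLA3 at 7.89. The carboxylesterase CES2, at 6.36, and the endothelial lipase gene LIPG, at 3.72, followed. The pancreatic relatives PNLIPRP1 and PNLIPRP3 were at the floor.

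SPINK1 (chromosome 5, 147204135 to 147211234, minus strand), the pancreatic secretory trypsin inhibitor, had 3.29 RPKM in library 1 and 3.48 in library 2, from about 34.3 and 36.3 reads. PRSS1 stood at 18.4 times SPINK1 in library 1 and at 17.1 times in library 2. Of 23 protease inhibitor genes, SPINK1 included, 16 (69.6%) reached 1 RPKM, beside 59.8% of protein-coding genes. SPINK1 was itself the median of the list, with 11 genes above it and 11 below. The list holds 2 cystatins, CST3 and CSTB, which inhibit cysteine proteases and not trypsin, and without them 9 genes lay above SPINK1. The highest of the list were far above SPINK1. SERPINA1, which encodes alpha-1-antitrypsin, had 361 and 368 RPKM, and SERPINA5, the protein C inhibitor, had 108 in both libraries. SPINT2, a membrane-bound Kunitz inhibitor, stood at 64.5, and the cystatin CST3 at 71.8. TFPI at 1.57, TFPI2 at 1.60, ITIH4 at 1.53 and antithrombin, SERPINC1, at 0.765 lay below SPINK1, and PZP and ITIH3 were at the floor. In the SPINK family SPINK5 had 2.47 and 2.49 RPKM, SPINK4 stayed under 1, and SPINK2 and SPINK6 were at the floor.

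A motif of acinar promoters was found in members above the floor and at it. For 7 of the 8 genes the RefSeq table (GRCh38) gives 250 bases before and 50 after the start. The letters CACCTG, a core bound by helix-loop-helix factors such as the acinar factor PTF1A, were searched on both strands, where the other strand reads CAGGTG. They were found in 6 of the 7, all but PNLIP, beside 20.6% of the 35116 promoters in the table. PRSS1 and PRSS3 held them 2 times each, which 3.49% of promoters did at least. CELA3A, at the floor, held them 3 times, as did CEL and SPINK1, both above it. CPA1, at the floor, held them 1 time. In the trypsinogens, the first copy started at -178 from the start of PRSS1 and at -179 from that of PRSS3, and the other at -103 and -104. The PRSS1 and PRSS3 promoters were 89.6% identical over 299 aligned bases, so their matches are not independent. On GRCh37 the PRSS3 promoter matched 33795309 to 33795608, inside the gene annotated from 33750677 to 33799229. It thus stands for 1 start of a gene with 7 transcripts, and which start gave the PRSS3 value was not tested. Of these promoters 3 are shown, from chr7:142749222-142749521 (PRSS1), chr9:33795311-33795610 (PRSS3) and chr1:22001407-22001706 (CELA3A), all on the plus strand, with the motif in capitals.
PRSS1: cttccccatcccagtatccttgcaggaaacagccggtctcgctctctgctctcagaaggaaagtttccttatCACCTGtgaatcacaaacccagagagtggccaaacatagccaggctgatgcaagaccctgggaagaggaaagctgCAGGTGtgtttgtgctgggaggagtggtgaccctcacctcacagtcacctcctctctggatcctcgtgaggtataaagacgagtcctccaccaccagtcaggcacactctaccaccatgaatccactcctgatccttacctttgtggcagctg
PRSS3: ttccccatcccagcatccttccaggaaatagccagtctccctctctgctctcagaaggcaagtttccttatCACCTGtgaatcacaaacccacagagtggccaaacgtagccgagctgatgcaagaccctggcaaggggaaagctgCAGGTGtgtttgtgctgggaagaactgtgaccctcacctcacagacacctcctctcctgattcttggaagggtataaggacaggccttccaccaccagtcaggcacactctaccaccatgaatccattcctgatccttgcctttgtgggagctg
CELA3A: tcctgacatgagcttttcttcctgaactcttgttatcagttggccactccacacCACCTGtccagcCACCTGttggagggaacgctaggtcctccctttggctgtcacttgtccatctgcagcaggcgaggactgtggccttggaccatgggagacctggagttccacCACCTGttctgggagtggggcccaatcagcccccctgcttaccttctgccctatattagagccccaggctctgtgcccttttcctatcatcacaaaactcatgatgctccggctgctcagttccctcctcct

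The other acinar enzymes and granule proteins were mostly at the floor. Of 18 further acinar enzymes and zymogens, 2 reached 1 RPKM, beside 59.8% of protein-coding genes, and 14 were at the floor, beside 33.8%. Those detected were the ribonuclease RNASE1, at 10.3 and 10.5 RPKM, and the deoxyribonuclease DNASE1, at 4.67 and 4.94, which other tissues also make. The amylase gene AMY2B, which has near-identical relatives, had 0.995 and 1.17 RPKM, and PLA2G1B was above the floor in library 1 alone. CPB1, CTRB2, CTRC, CTRL, CELA1, CELA2A, CELA2B, CELA3B, CLPS, AMY1A, AMY2A and KLK1 were at the floor, as was PNLIPRP1. Of 15 granule and secretory proteins 1 (6.67%) reached 1 RPKM, beside 59.8% of protein-coding genes, namely RNASE4 at 5.57 and 5.34 RPKM. At the floor were 13, beside 33.8% of protein-coding genes, among them GP2, SYCN, CUZD1 and REG1A. Of the acinar enzyme and granule genes measured, PRSS1, PRSS3, RNASE1 and RNASE4 were thus the ones above 5 RPKM.

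Of 10 transcription factors that act in acinar cells, 8 (80%) reached 1 RPKM, beside 59.8% of protein-coding genes. The other 2 were at the floor, beside 33.8% of protein-coding genes. These were PTF1A, which drives acinar enzyme genes, and its partner RBPJL. BHLHA15, a factor of secretory cells, was just past the limit, at 1.13 and 1.35 RPKM. FOXA2 at 72.1, XBP1 at 48.2, GATA4 at 43.5 and GATA6 at 42.6 RPKM were the highest, and all 4 also act in liver. NR5A2, a nuclear receptor of both liver and acinar cells, stood at 3.84. Of 9 pancreatic progenitor factors 6 (66.7%) reached 1 RPKM, near the share of protein-coding genes, with HHEX at 59.7, HES1 at 56.1, ONECUT1 at 19.9 and PROX1 at 14.6 highest. PDX1, needed for the pancreatic bud, had 8.01 and 8.87 RPKM and SOX9 9.04 and 9.90, while NKX6-1, NKX6-2 and MNX1 were at the floor.

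Markers of the other pancreatic cell types and of the intestine were also measured. Of 12 duct markers 7 (58.3%) reached 1 RPKM, near the 59.8% of protein-coding genes that did. The highest were KRT19 at 409, CA2 at 23.2, SPP1 at 17.4 and CA4 at 11.4 RPKM. KRT7, MUC1 and SCTR were at the floor. Of 19 endocrine markers 4 (21.1%) reached 1 RPKM, among them SST at 5.32, RFX6 at 3.71 and ISL1 at 1.08, and 13 were at the floor. Of 15 intestinal and Paneth cell markers 3 (20%) did, VIL1 at 30.0, CDX2 at 2.12 and GUCA2A at 1.22 RPKM. The endocrine and intestinal shares lay below that of protein-coding genes. The Paneth cell genes DEFA5, DEFA6 and LYZ were at the floor. All 16 hepatoblast markers, listed like the others with earlier results of these data known, reached 1 RPKM, with a median of 346 RPKM. They ran down to ALB, which encodes albumin, at 6.84 and 6.53 RPKM, and KRT19 and HHEX are counted among the duct and progenitor genes as well.

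**Figure D4:**
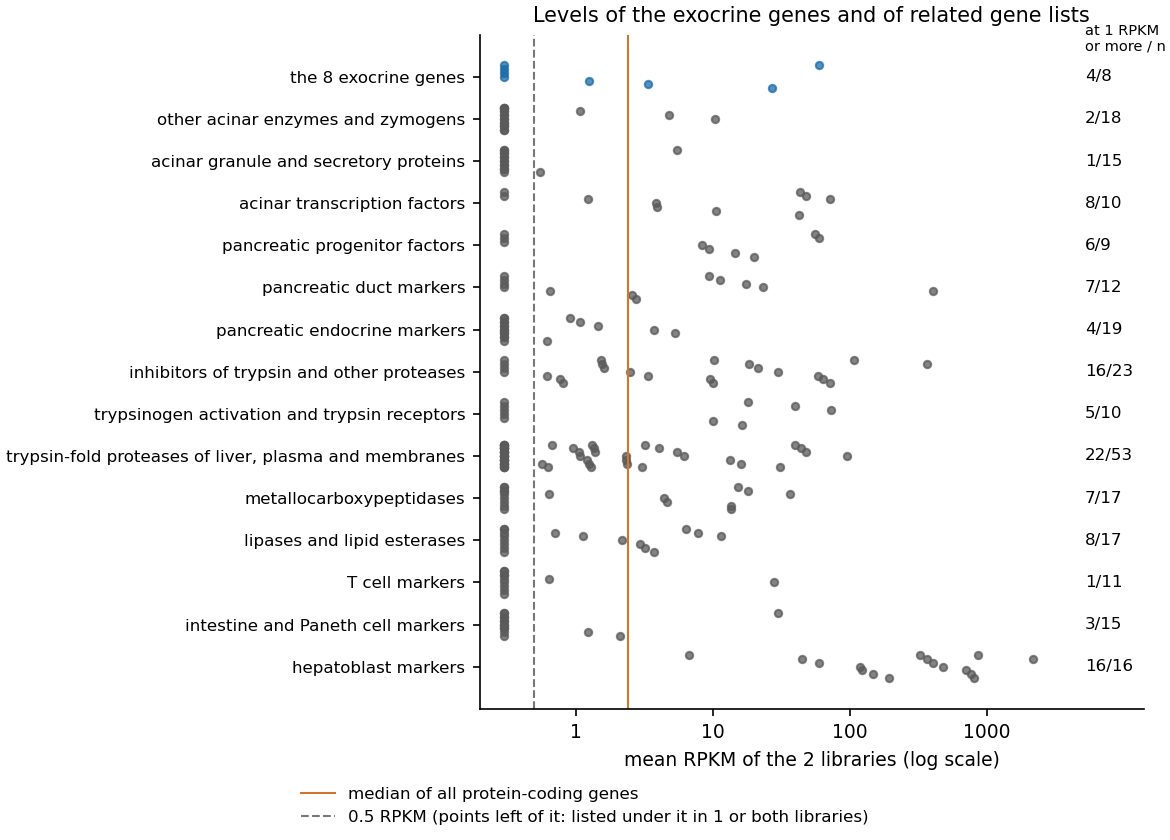
Mean RPKM of the 2 libraries (log scale) for each gene of the exocrine set and of 14 related lists, with 1 point per gene and, at the right, how many genes reached 1 RPKM in both libraries of how many measured; the orange line is the median of protein-coding genes, 2.43 RPKM. The acinar lists other than transcription factors lie mostly under 0.5 RPKM, and the hepatoblast markers lie above 5.

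Genes that act on trypsinogen or respond to trypsin were measured beside it. TMPRSS15, which encodes enteropeptidase, and CTRC, a chymotrypsin that degrades trypsinogen, were at the floor. The lysosomal protease CTSD stood at 73.4 RPKM and CTSB, which can activate trypsinogen, at 39.7. F2RL1, the protease-activated receptor that trypsin cleaves, had 17.9 and 18.3 RPKM, and the thrombin receptor F2R had 16.4 in both. The related receptors F2RL2 and F2RL3 were at the floor. Of the 10 genes measured in this list 5 (50%) reached 1 RPKM, beside 59.8% of protein-coding genes.

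PRSS1, by whose high level the set was chosen, is set here beside other genes with the trypsin fold, and its place among them restates that choice. Of 53 such genes of liver, plasma and membranes, 22 (41.5%) reached 1 RPKM, beside 59.8% of protein-coding genes. HABP2, a plasma hyaluronan-binding protease, was the 1 gene of these above PRSS1, at 95.7 RPKM. Next came the coagulation factor F10 at 48.4, the membrane protease PRSS8 (prostasin) at 44.1 and prothrombin, F2, at 40.2 RPKM. PRSS3 lay below these and below the hepatocyte membrane protease HPN (hepsin), at 31.1. Of 17 genes listed as metallocarboxypeptidases beside CPA1, 7 (41.2%) reached 1 RPKM, also below the share of protein-coding genes. They were led by CPXM1 at 36.5, AEBP1 at 18.0, CPE, which processes peptide hormones, at 15.3 and CPD at 13.7 RPKM, and the mast cell enzyme CPA3 was at the floor, as CPA1 was.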

How the data were processed

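The deposited table gives 1 RPKM value per gene and library, normalized by the authors, under versioned Ensembl identifiers. The series' design names Sailfish and hg19. FastQC 0.10.1, STAR 2.3.0e and Cufflinks 2.2.0 are listed per the submitters' processing notes. The tool behind the values, the annotation release and the read length were not given in the sources used here. From the values, single-exon genes gave whole reads (within 0.001) in 79.3% and 80.5% of cases in libraries 1 and 2, with 25182071 and 25263820 reads in the normalization. Reads quoted for other genes are estimates from the annotated transcript length, and intervals cover counting error only. Identifiers were joined without version to GENCODE 44 on GRCh37, and 95.2% matched. Windows came from spliced transcripts of that annotation, alignments from MAFFT 7.526 and genome matches from BLASTN 2.17.0. Named genes are the members, the trypsinogen relatives, genes above the floor within 100 kb, the 4 highest of each list and acinar genes at the floor. Some genes that this rule names are not reported here. Other genes were named with their values in view. Members and the 15 lists (251 symbols, 242 matched) were chosen with earlier results of these data known. With 1 group no test between conditions could be run. The depth recovery and the comparison of the libraries were tested on simulated data.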

Additional observations from a re-analysis of the deposited data

How the results depend on the processing

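At a limit of 5 RPKM, 2 members were detected in place of 4, and 70 of the 242 listed genes in place of 106. The floor limit, 1 RPKM in either library, a single library, rescaling to a fixed total and summed identifiers each left 4 members, and gave 106 to 122 listed genes. Rescaled so that each library sums to 1000000, PRSS1 stood at 159, PRSS3 at 71.6, SPINK1 at 8.97 and CEL at 3.31. From library to library PRSS1 ran from 59.7 to 60.8 RPKM, PRSS3 from 26.7 to 27.3, SPINK1 from 3.29 to 3.48 and CEL from 1.13 to 1.36, and PRSS1 over PRSS3 from 2.18 to 2.27. With the copies on chromosome 7 added to PRSS1 that ratio was 4.93 in place of 2.23. PRSS1 windows found in a relative were 2.11% at 50 bases, 7.88% at 36, 0% at 75 and 0% at 100, and 26.4% at 50 bases and 0.845% at 100 with up to 2 mismatches, chosen after seeing the data. The library difference over counting variance was 1.09, and 1.02 (95% interval 0.947 to 1.1) and 1.15 (1.03 to 1.3) with a minimum of 20 and 100 reads, so that the last interval excludes 1. No paired analysis was possible because the series has 1 group. Read length, reads with several matches and separate cultures are not known, and a gene at the floor may still be transcribed.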

Other observations

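TRBC2, downstream of the trypsinogen cluster and picked after its values were seen, was 12.5% of its mean lower in library 2 than in library 1. Counting alone gives 6.13% (about 567 and 502 reads). A difference of this size was not particular to TRBC2. The duct marker CFTR differed by 14.3% against 6.91% from counting, and SOX9 by 9.07% against 4.62%, both higher in library 2. Whether any of these exceeds what many genes give by counting was not tested. PRSS1, PRSS3, PRSS3P1 and PRSS3P2 each differed between libraries by less than their counting error.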
